A study of Mus musculus with 15 samples.

Results

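The hippocampus of the control mice is described here from 4 of the 15 arrays of the series. They are all the arrays labelled dflox, and they were chosen by that label alone. The dflox mice carried floxed alleles of both corticosteroid receptor genes, Nr3c1 for the glucocorticoid receptor (GR) and Nr3c2 for the mineralocorticoid receptor (MR), without a Cre recombinase. They were C57BL/6 males of about 2.5 months, and RNA came from the whole hippocampus of both hemispheres. Every value rests on floxed mice, so no mouse with unmodified receptor alleles is among them. Each array was hybridised with Cy3-labelled cRNA, and a level is the log2 of the processed signal minus the 75th percentile of the array, so that 0 is the brightness of that percentile. All 4 arrays lay on 1 slide, where the replicate number is also the position. The labels do not state that each array is a separate mouse, so the spread between arrays may be technical in part. The arrays form 1 group and no test between groups was made. The spread is given as an SD or a range over 4 arrays, whose number limits the precision.

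The hippocampus holds granule cells of the dentate gyrus and pyramidal cells of the fields CA1 to CA3, with interneurons, glia and vessels. The choroid plexus, an epithelium that makes cerebrospinal fluid, and the ependyma of the lateral ventricle lie against it, and the septum and thalamus are its neighbours. Activity-regulated genes are transcribed within minutes of neuronal firing, and their RNA is short-lived. The tissue is bulk, so fewer cells of a type and less RNA per cell cannot be told apart.

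The array held 31758 genes, of which 19096 had a symbol. On all 4 arrays 20085 genes (63.2%) were well above background by the scanner's flag, and 14669 (76.8%) of the genes with a symbol were. Another 9010 genes were above background on none. The 75th percentile of the processed signal was 1019 on replicate 1, 929 on replicate 2, 1027 on replicate 3 and 919 on replicate 4. No spot was saturated. Across genes within pairs of arrays Pearson's r lay between 0.994 and 0.997.

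The brightest genes included enzymes and ribosomal proteins that most cells use, and some neuronal and astrocyte genes. Brightness depends on each probe, so the order is one of probes and not of transcript numbers. Lars2, the mitochondrial leucyl-tRNA synthetase, was brightest at 8.54, 8.67, 8.53 and 8.61 on replicates 1 to 4. Aldoa, an enzyme of glycolysis, followed at 8.23, 8.30, 8.18 and 8.38. The ranges over the 4 arrays were 0.144 and 0.2, and no array stood apart. Cox6a1, a subunit of cytochrome oxidase, had a mean of 7.89 ± 0.0565 (SD, n = 4), and Fth1, the ferritin heavy chain, 7.67 ± 0.0407. Apoe, the lipid carrier of astrocytes, had 7.42 ± 0.0427, and Calm2, a calmodulin, 7.34 ± 0.0532. Nrgn, the calmodulin-binding neurogranin of principal neurons, reached 7.23 ± 0.129, and Chgb, a protein of secretory granules, 7.20 ± 0.12.

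Of the 30 brightest genes 6 encoded cytosolic ribosomal proteins, 3 complex IV subunits and 1 an ATP synthase subunit. Together the 30 took 6.10% to 6.31% of the summed signal of all genes. None of them had a range of 1 log2 unit, and the median SD among them was 0.0776. Grn, encoding the lysosomal protein progranulin, had the widest spread of them, at 7.42, 7.21, 7.53 and 6.88, with replicate 4 lowest. A second Grn probe read 2.12, 2.06, 1.996 and 2.05 and had replicate 1 highest, so the spread of the bright probe was not seen there. Gabarapl1, of the autophagy family, had 7.60 on its brighter probe and 2.98 on the other, and Kif5a, a kinesin motor, had 7.30 and 0.23.

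The steadiest of the 1000 brightest genes was Pcbp4, an RNA-binding protein, with an SD of 0.00197 around 4.38. Eef1d, a translation elongation factor subunit, had an SD of 0.00465 around 4.01. Stub1, a ubiquitin ligase that works with chaperones, had 0.00808 around 4.38, and Ndufb11, a complex I subunit, 0.00965 around 5.89. These are the lowest of many genes with only 4 values each, and such low SDs lie under the median SD of 0.0712 between the spots of a probe within an array.

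Families differed widely in how many members were seen, against 76.8% of all genes with a symbol. All 36 complex I subunits, 17 ATP synthase subunits, 40 proteasome subunits and 14 tubulins on the array were above background on all 4 arrays, as were 82 of 83 cytosolic ribosomal proteins. Of the glutamate receptors, 4 of 4 AMPA, 7 of 7 NMDA and 4 of 5 kainate receptor subunits were seen, and 6 of 8 metabotropic receptors. Gria1, an AMPA subunit, had levels of 6.08, 6.12, 5.86 and 6.11, with replicate 3 below the other arrays. Of 88 potassium channel subunits 74 were seen, of 18 GABA-A receptor subunits 12, and of 13 serotonin receptors 7. Kainate subunits (80%), metabotropic receptors (75%) and potassium channel subunits (84.1%) thus lay near the share of all genes with a symbol. Gabrb2, at a mean of 3.82 ± 0.071, was the brightest of the GABA-A probes. All 10 frizzled receptors and 21 of 22 beta protocadherins were seen.

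Sensory receptor, defensin and casein families were mostly not seen. Of 887 olfactory receptors 149 (16.8%) were above background on all 4 arrays and 607 on none. The count was 12 of 110 type 1 vomeronasal receptors, 1 of 21 type 2 vomeronasal receptors, 1 of 13 bitter taste receptors, 7 of 34 defensins, 12 of 41 keratin-associated proteins and 0 of 5 caseins. Some families known from other organs were seen more often than these, with 22 of 43 keratins, 9 of 15 lens crystallins and 4 of 4 protamines and transition proteins of sperm. The sperm genes had a median level of -4.66, where signal is near background. Keratins (51.2%) and crystallins (60%) were still below the 76.8% of all genes with a symbol. Probes of such large families can share sequence with near-identical copies or overlapping transcripts, so the gene behind a signal is uncertain. Olfr571 was the brightest olfactory receptor probe, at 1.29, 1.22, 1.20 and 1.45. The keratin-associated Krtap4-6 was read at 4.67, 4.72, 4.72 and 4.64, as high as many neuronal genes and alike on the 4 arrays, and Defa3, a defensin, had a mean of 1.77 ± 0.148.

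Families of transcription factors also differed in how many members were seen, against 76.8% of all genes with a symbol. Of 36 HOX genes, which specify position behind the forebrain, 4 were seen, and these were Hoxa3 (mean -2.14), Hoxb3 (-2.74), Hoxa7 (-4.85) and Hoxa6 (-5.64). Of 9 PAX genes Pax6 (-1.19) and Pax2 (-5.74) were seen. By contrast 17 of 18 SOX genes were above background. The count was 4 of 6 DLX genes and 6 of 8 LIM homeobox genes, of which Lhx2 (3.86), a regulator of the cortex and hippocampus, was the brightest. Among chemokine ligands Cx3cl1, which neurons make as a signal to microglia, had 6.18 ± 0.13.

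**Figure D1:**
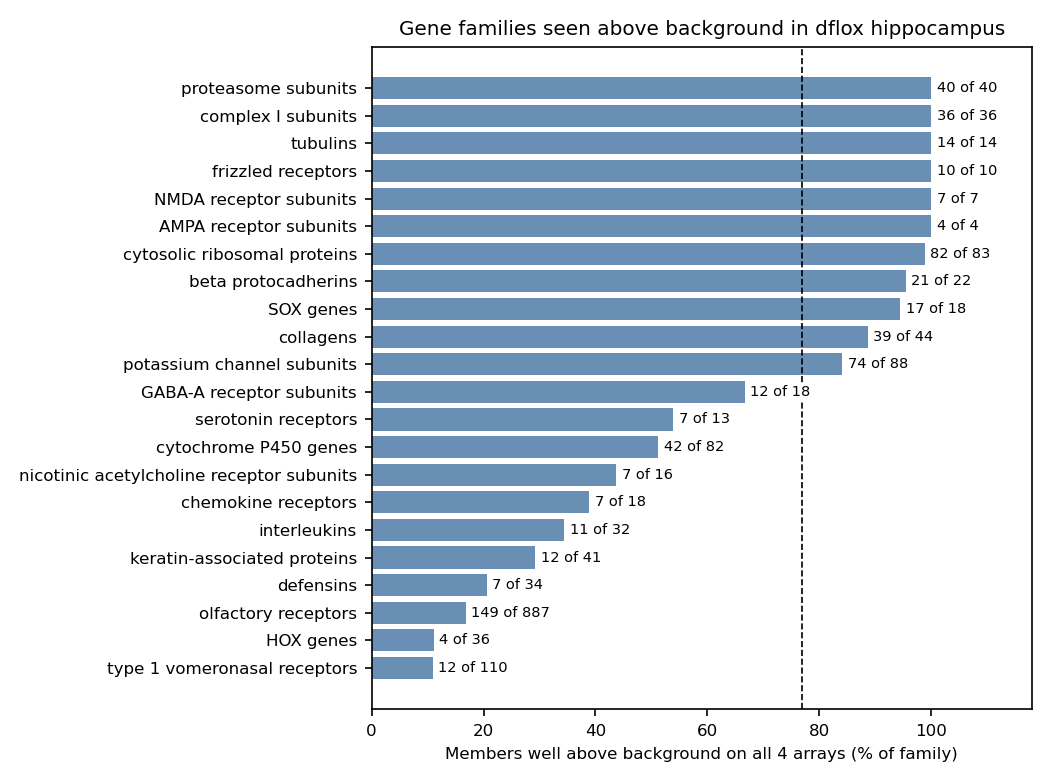
Share of the members of 22 gene families that were well above background on all 4 dflox arrays (horizontal axis, percent of members on the array), with the counts beside the bars. The dashed line is the share over all genes with a symbol, 76.8%. Complex I, tubulins and the AMPA and NMDA receptor subunits reach the full share, and olfactory receptors 16.8%.

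Most markers of the hippocampus were above background, as were 76.8% of all genes with a symbol. Among 16 dentate granule cell markers 15 were above background on all 4 arrays and Glis3 on none, and all 12 CA1, all 12 CA2 and 8 of 10 CA3 markers were. Calb1, a calcium buffer of granule cells, had 3.40, 3.53, 3.12 and 3.66. Pou3f1, a CA1 transcription factor, had 5.26, 5.62, 5.19 and 5.36, and Pcp4, a CA2 marker, 4.23, 4.34, 4.47 and 4.33. Calb1 and Pou3f1 were lowest on replicate 3, and Pcp4 on replicate 1. Replicate 3 was lowest for 9 of the 15 dentate, 6 of the 12 CA1 and 6 of the 8 CA3 markers. For CA2 markers it was 4 of 12, and for all genes 28.3%. All 17 astrocyte, 18 microglia, 10 oligodendrocyte progenitor and 16 endothelial and pericyte markers on the array were seen, with list ranges of 0.0813, 0.13, 0.12 and 0.144. A list range is the highest minus the lowest of the 4 array means over the members, each centred on its own mean. Nr3c1 was read at 1.495, 1.79, 1.77 and 1.49 by its brightest of 4 probes, and Nr3c2 at -3.45, -3.36, -3.65 and -3.57 by its brightest of 3. Both floxed genes were thus above background on every array, with ranges of 0.303 and 0.295.

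The spread between arrays was small for most genes. Over the 20085 genes the median SD was 0.108 log2 units, and 95% of genes had an SD under 0.38. A range of at least 1 log2 unit (2-fold) was reached by 644 genes, or 3.21%. The spread fell with brightness, from a median SD of 0.203 among genes with a mean under -4 to 0.0703 above 4, and 300 of the 644 genes lay under -4. Of the genes above 4 only 4 had such a range. For the 190 probes with 10 spots that were above background throughout, the median SD between single spots of an array was 0.0712. The median SD between arrays of the mean over the 10 spots was 0.113, and it was the larger for 70% of these probes. Spot noise is smaller in a mean over 10 spots than in a single spot, so these SDs are not like for like.

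**Figure D2:**
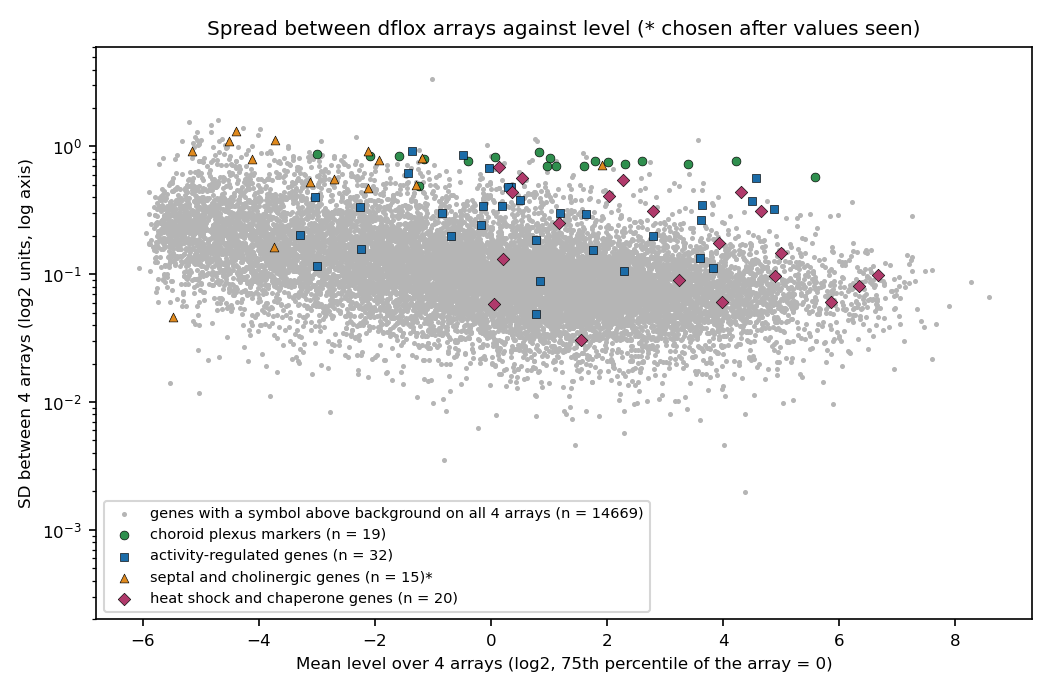
SD between the 4 dflox arrays (log axis, log2 units) against the mean level (log2, 75th percentile of the array at 0) for genes with a symbol above background on all 4 arrays, with members of 4 lists coloured. Choroid plexus markers sit near an SD of 0.76 across levels, above the bulk of genes of the same level, whose median over all genes is 0.108.

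Which arrays were high was not spread evenly among the 644 genes. For each gene the arrays above the largest gap among its 4 levels were noted. Replicates 1 and 3 together were the high arrays for 172 of the 644 genes (26.7%), against 6.42% of all genes. Replicate 3 alone was high for 109 genes (16.9%, against 8.49%), replicate 4 alone for 62 (9.63%, against 13.3%), replicate 1 alone for 61 and replicate 2 alone for 59. The remaining patterns had at most 50 genes each.

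**Figure D3:**
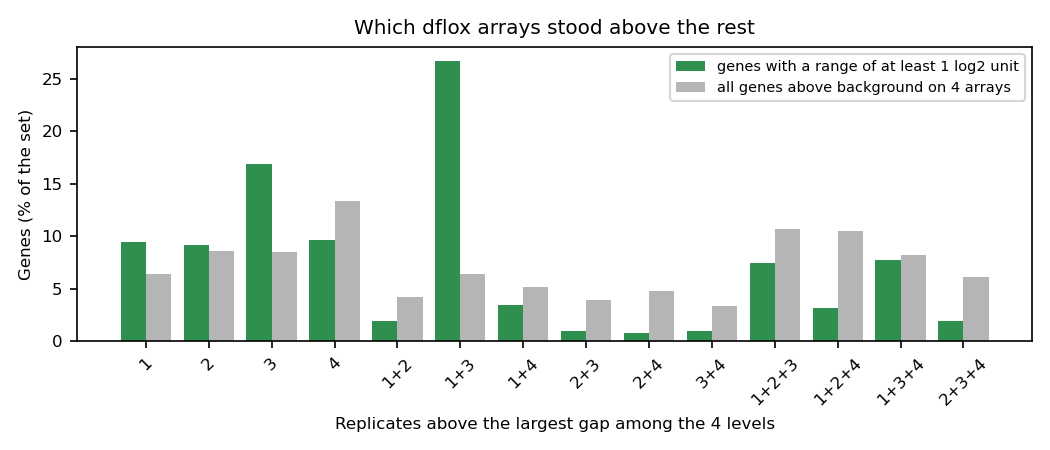
Share of genes (vertical axis, percent of the set) for each set of replicates that stood above the largest gap, among the 644 genes with a range of at least 1 log2 unit and among all 20085 genes. Replicates 1 and 3 together hold 26.7% of the first set and 6.42% of the second.

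The choroid plexus markers were the widest list. All 19 of the 19 markers found on the array were above background on the 4 arrays, all 19 had a range of at least 1, against 3.21% of all genes, and all 19 had replicates 1 and 3 both above replicates 2 and 4, against 18.4% of all genes. The list means were 0.55 on replicate 1, -0.75 on replicate 2, 0.73 on replicate 3 and -0.54 on replicate 4, a list range of 1.48. Ttr, the thyroxine carrier that this epithelium makes in bulk, had 4.74, 3.53, 4.999 and 3.59, a 2.77-fold difference between highest and lowest. Enpp2, which makes lysophosphatidic acid, had 5.98, 5.14, 6.16 and 5.01. In both genes the pairs did not overlap. Folr1, a folate receptor, had 3.21, 1.78, 3.32 and 2.12, and its second probe read -1.15, -2.38, -0.95 and -1.91. Otx2, a transcription factor that the epithelium needs, had -1.01, -2.48, -0.72 and -2.09, the largest fold of the list at 3.38. Ace, the angiotensin-converting enzyme, had the smallest, 2.02-fold. The 2 other probes of Prlr, the prolactin receptor, read -1.83, -3.17, -1.66 and -2.71, and -1.41, -2.18, -1.27 and -2.10, with the same order of arrays as its brightest.

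Some genes beside this list moved with the same arrays. The ependymal and ciliated cell list had means of 0.15, -0.25, 0.39 and -0.29, with 12 of 13 members at replicates 1 and 3 above 2 and 4, and 2 members had a range of 1. The list range was 0.673, and 0.436 without replicate 3. Its member Tekt1, a protein of cilia, had 1.60, 0.91, 1.91 and 0.95. Krt18, an epithelial keratin that is on neither list, had 2.03, 0.98, 2.36 and 1.04. Bst2, an interferon-stimulated membrane protein, had 0.54, -0.19, 0.47 and -0.08. Of the 17 interferon-stimulated genes found, only 5 had replicates 1 and 3 above 2 and 4, against 18.4% of all genes. Replicate 1 was highest for 9 of the 17, against 20.8% of all genes. The list means were 0.13, -0.05, 0.01 and -0.08. Of the CA2 markers Sostdc1, which is also on the choroid plexus list, was the only 1 with a range of at least 1, at 2.35, 1.24, 2.54 and 1.01. The 75th percentile of the processed signal was higher on replicates 1 and 3 too. Its part in the pattern was not tested. The choroid plexus list range was 1.44 with median scaling and 1.49 with quantile normalization.

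Activity-regulated genes were lowest on replicate 1. Of the 33 found on the array 32 were above background throughout, and 25 of these had replicate 1 lowest, against 20% of all genes. The list means were -0.36, 0.23, 0.10 and 0.03, a list range of 0.594. A range of at least 1 was reached by 6 of them. Npas4, a transcription factor induced by calcium entry, had -2.72, -0.61, -1.05 and -1.09, with the widest spread of the list at a 4.32-fold range. Fos, a subunit of AP-1, had -1.61, -0.0041, 0.32 and -0.64. Arc, a synaptic protein whose RNA travels to dendrites, had 3.79, 5.14, 4.67 and 4.68. Replicate 1 was below the other 3 in each of these genes. Egr2 had -0.88, 0.52, 0.51 and -0.28, and Ccn1, a secreted matrix protein, -2.08, -0.78, -1.03 and -1.82. Junb, the brightest of the list, had 4.49, 5.18, 5.08 and 4.73, and its other probe 3.49, 4.08, 4.14 and 3.71. The list was not uniform. Homer1, a scaffold of the postsynaptic density, had 0.73, 0.75, 0.84 and 0.78, and Egr3 0.72, 0.89, 0.86 and 0.92. Both had replicate 1 lowest but were spread little. Bdnf, a neurotrophin, had 0.79, 1.01, 0.56 and 0.74, with replicate 3 lowest. Without replicate 1 the list range fell to 0.206.

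The promoters of 26 of these genes were found in the RefSeq table of assembly GRCm38.p6. The cAMP response element TGACGTCA, searched on both strands in the 250 bases before the start, was in 4 of the 26 and in 508 of 32851 promoters (1.55%). None of those 4 is a gene described above, such as Npas4, Fos or Arc. Btg2, which limits proliferation, and Dusp1, a phosphatase of MAP kinases, are shown because they hold that element and had replicate 1 or 4 lowest. Dusp1 had replicate 1 lowest and Btg2 replicate 4. Both lie on the minus strand, and the capitals mark the element. A match is only a match of letters.

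Btg2, chr1:134079156-134079405: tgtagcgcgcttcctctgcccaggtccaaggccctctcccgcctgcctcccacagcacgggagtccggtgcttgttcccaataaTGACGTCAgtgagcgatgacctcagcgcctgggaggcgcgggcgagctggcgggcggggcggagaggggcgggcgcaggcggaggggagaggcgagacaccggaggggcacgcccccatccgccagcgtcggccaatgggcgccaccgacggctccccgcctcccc
Dusp1, chr17:26508473-26508722: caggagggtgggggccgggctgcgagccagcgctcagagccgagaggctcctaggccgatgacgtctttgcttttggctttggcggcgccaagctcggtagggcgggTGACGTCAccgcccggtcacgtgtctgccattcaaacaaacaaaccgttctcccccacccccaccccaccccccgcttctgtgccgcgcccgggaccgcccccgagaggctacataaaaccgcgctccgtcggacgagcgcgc

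Btg2 was read at -0.03, 0.83, 0.69 and -0.11, so replicates 1 and 4 lay below 2 and 3. Dusp1 had -0.01, 0.81, 0.77 and 0.43.

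Genes of heat shock and protein folding were highest on replicate 4. All 20 listed were above background, 17 had replicate 4 highest, against 30.4% of all genes, and 4 had a range of at least 1. The list means were -0.08, -0.16, -0.11 and 0.35, a list range of 0.507, and without replicate 4 it was 0.0828. Hspa1b, an inducible Hsp70, had -0.12, -0.15, -0.35 and 1.17, and its other probe -3.31, -3.35, -3.51 and -2.31. Hspa1a, its neighbour and near-identical copy, had 2.17, 2.04, 1.85 and 3.07, so the probes of the pair are not independent. Hspb1, a small heat shock protein, had 0.34, 0.05, 0.41 and 1.35. Replicate 4 was above the others in each. In the endoplasmic reticulum, Hspa5, the chaperone BiP, had 4.17, 3.94, 4.21 and 4.95, a 2.02-fold range. Sdf2l1, a partner of BiP, had 0.29, 0.01, 0.17 and 1.01, and Manf, a secreted protein of the same compartment, 1.95, 1.67, 1.89 and 2.61. Not all chaperones followed. Hsp90b1 had 4.79, 4.66, 4.77 and 4.67, and Hyou1 1.59, 1.54, 1.54 and 1.52.

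The ER stress response element, searched as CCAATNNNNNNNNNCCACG on both strands in the same window, was in 37 of 32851 promoters (0.113%). It was in 6 of the 10 promoters matched from 13 ER chaperone genes, a list chosen after the values were seen, and in 0 of 10 of the cytosolic heat shock genes. Creld2 and Pdia6, which were highest on replicate 4, and Hsp90b1 and Calr, which were spread little, are shown with Hspa5. The capitals mark the element.

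Hspa5, chr2:34771840-34772089, plus strand: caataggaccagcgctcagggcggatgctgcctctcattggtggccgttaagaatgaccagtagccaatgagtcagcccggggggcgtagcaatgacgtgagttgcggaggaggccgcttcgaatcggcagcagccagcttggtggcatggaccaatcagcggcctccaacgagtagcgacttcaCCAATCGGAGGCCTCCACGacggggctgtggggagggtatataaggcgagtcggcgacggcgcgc
Creld2, chr15:88819396-88819645, plus strand: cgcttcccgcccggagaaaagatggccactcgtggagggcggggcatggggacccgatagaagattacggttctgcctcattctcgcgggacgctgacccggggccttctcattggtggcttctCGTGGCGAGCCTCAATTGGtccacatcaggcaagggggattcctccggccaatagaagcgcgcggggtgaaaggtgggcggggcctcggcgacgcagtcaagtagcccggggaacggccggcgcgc
Pdia6, chr12:17266339-17266588, plus strand: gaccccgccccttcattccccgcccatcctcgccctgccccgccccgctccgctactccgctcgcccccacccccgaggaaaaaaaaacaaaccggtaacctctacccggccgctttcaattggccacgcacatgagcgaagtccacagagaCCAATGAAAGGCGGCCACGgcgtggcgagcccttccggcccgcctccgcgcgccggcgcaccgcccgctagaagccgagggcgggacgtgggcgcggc
Hsp90b1, chr10:86705445-86705694, minus strand: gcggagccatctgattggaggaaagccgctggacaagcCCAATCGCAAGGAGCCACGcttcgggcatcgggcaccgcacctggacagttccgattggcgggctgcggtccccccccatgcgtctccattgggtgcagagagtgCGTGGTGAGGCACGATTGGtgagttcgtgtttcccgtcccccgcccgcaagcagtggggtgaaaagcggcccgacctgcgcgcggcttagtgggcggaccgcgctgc
Calr, chr8:84846932-84847181, minus strand: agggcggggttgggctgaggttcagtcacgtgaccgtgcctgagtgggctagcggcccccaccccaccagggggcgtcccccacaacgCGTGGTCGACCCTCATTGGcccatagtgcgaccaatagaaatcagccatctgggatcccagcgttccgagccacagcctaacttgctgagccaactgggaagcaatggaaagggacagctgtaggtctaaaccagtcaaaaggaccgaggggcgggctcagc

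Creld2 was read at 2.77, 2.56, 2.62 and 3.24, and Pdia6, a disulfide isomerase, at 3.83, 3.78, 3.94 and 4.17. Calr, the calcium-binding calreticulin, was read at 3.65, 3.71, 3.72 and 3.80, a range of 0.149.

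Some other genes were high on replicate 3 alone. In the striatum list, 11 of 12 genes found were above background, with means of -0.11, -0.14, 0.36 and -0.10 and a list range of 0.505. Replicate 3 was highest for 5 of the 11, against 24.6% of all genes, and lowest for 3, against 28.3% of all genes. The list range was 0.187 when members with a mean level under -2 were dropped and 0.0418 without replicate 3. Its widest member was Isl1, a LIM homeodomain factor, at -4.65, -5.51, -2.49 and -4.93, and Drd2, the dopamine D2 receptor, had -3.28, -3.54, -2.35 and -3.33. Replicate 3 was above the rest in both. Zic1, a zinc finger factor of septum and thalamus, had 1.79, 1.37, 2.95 and 1.54, and its second probe 1.79, 1.32, 2.74 and 1.45. Of 5 Zic genes on the array 4 were above background throughout and 1 on none. All 4 had a range of at least 1, against 3.21% of all genes, and their median level was -2.41. The thalamus and habenula list, which holds Zic1 and Zic4, had means of -0.04, -0.11, 0.20 and -0.06. Replicate 3 was highest for 7 of its 15 members above background throughout and lowest for 3. Its list range was 0.316, and 0.0759 without replicate 3. Gnrh1, the gonadotropin-releasing hormone that neurons of the septal and preoptic region make, had -4.61, -4.56, -2.93 and -4.36. Avpr1a, a vasopressin receptor, had -4.67, -5.05, -2.90 and -5.42, and Sp8, a factor of the ventral forebrain, -4.13, -3.68, -2.19 and -4.85. Lhx8, which specifies cholinergic neurons, was above background only on replicate 3, at -2.43.

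A list of 18 septal and cholinergic genes was then drawn up with these values in view, so its counts carry no weight of their own. Of the 15 above background throughout 13 had a range of at least 1, and 13 had replicate 3 highest, against 24.6% of all genes. The list range was 1.44, and 0.239 without replicate 3. The choline transporter Slc5a7 had -5.82, -5.75, -3.83 and -5.19, but Chat, the enzyme that makes acetylcholine, had -5.45, -5.46, -5.55 and -5.48, and Slc18a3, the vesicular acetylcholine transporter, was above background on none. On the same array several hippocampal lists were low, with means of -0.17 for dentate granule cell markers, -0.17 for CA1, -0.11 for CA3 and -0.12 for glutamatergic neurons, of which 12 of 18 members had replicate 3 lowest, against 28.3% of all genes. The CA2 list was not low there, with a mean of 0.01. Spink8, a CA1 marker, had 2.997, 2.67, 1.76 and 2.93. How much of the replicate 3 pattern these markers account for was not tested.

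**Figure D4:**
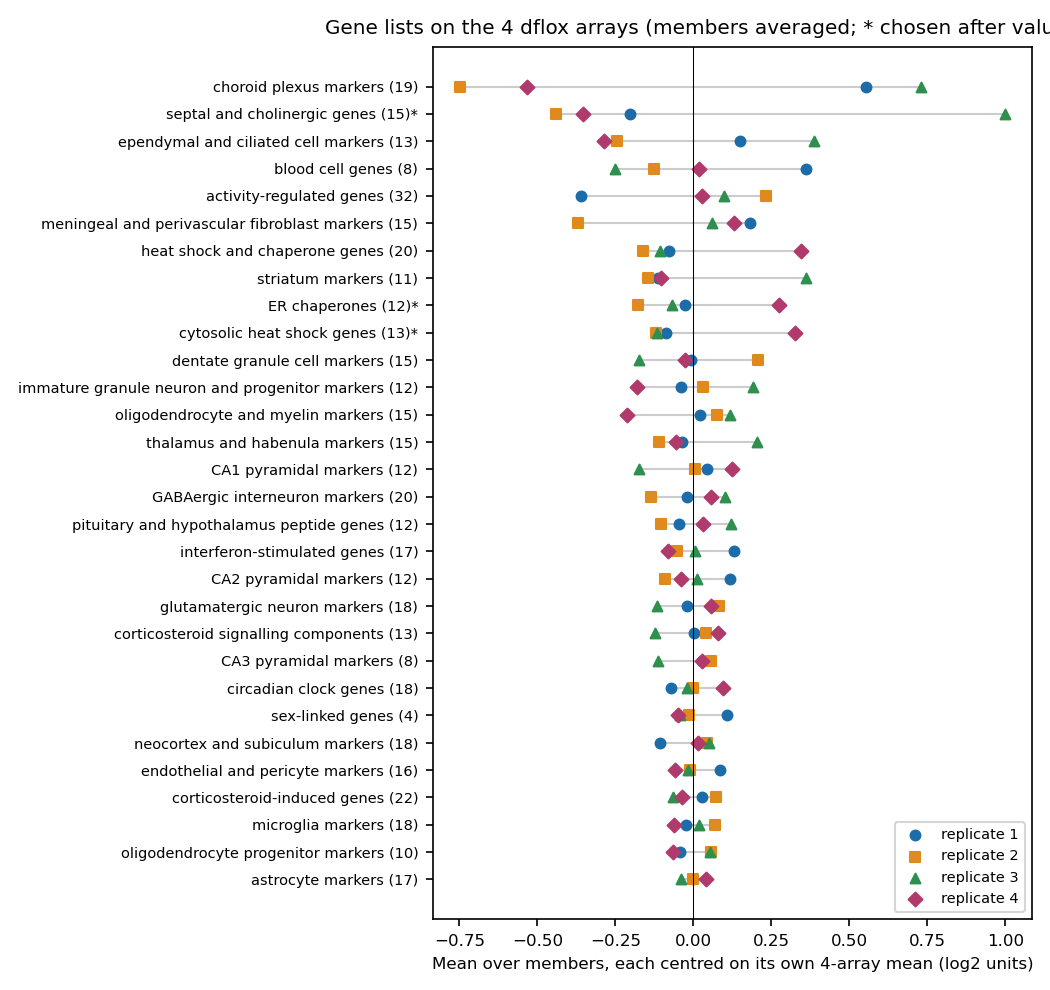
Mean over members for each gene list on each dflox array (horizontal axis, log2 units, each member centred on its own mean), with the number of members in brackets and lists chosen after the values were seen starred. The choroid plexus list spans -0.75 to 0.73, and the astrocyte list less than 0.1.

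**Figure D5:**
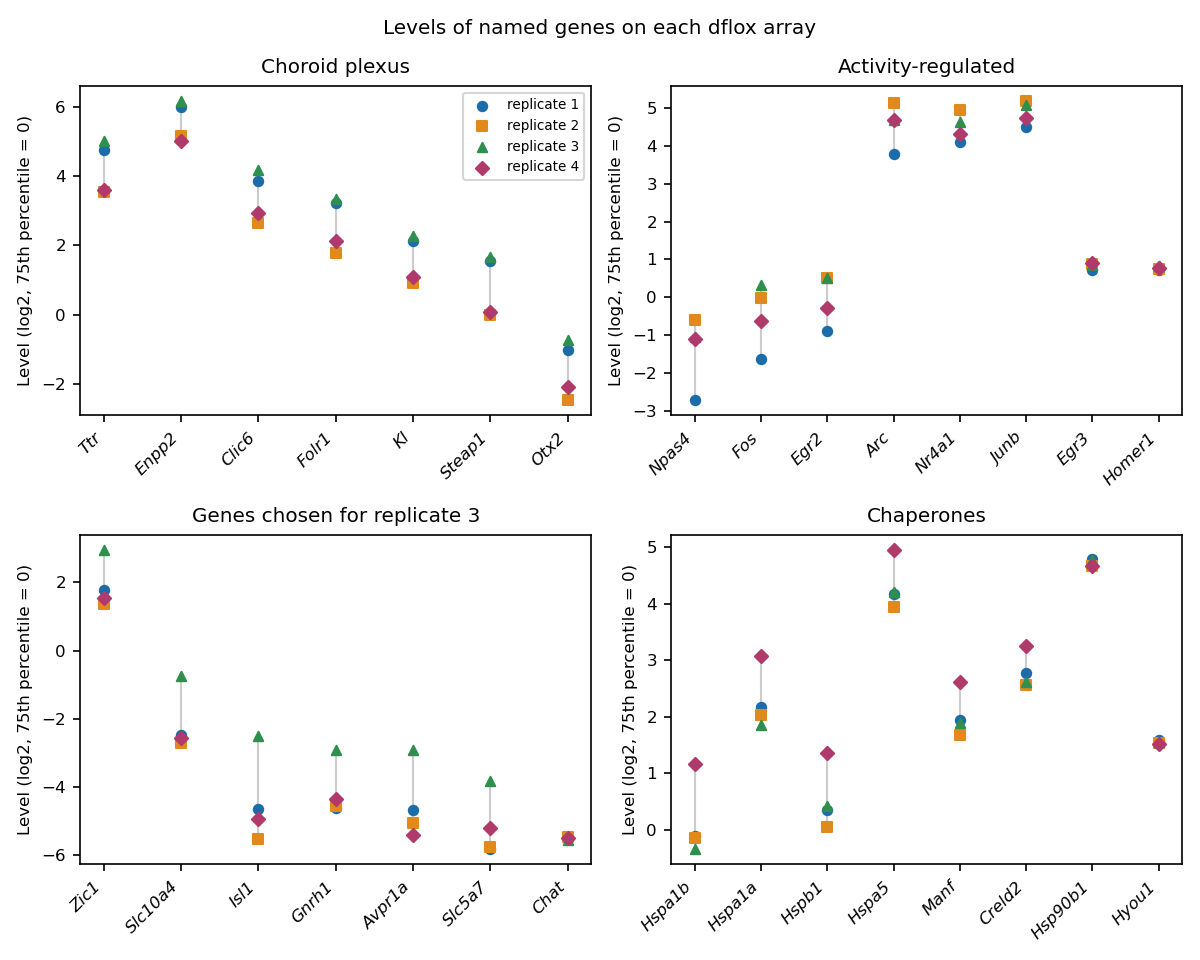
Levels of named genes on the 4 dflox arrays (vertical axes, log2, 75th percentile of the array at 0; points are arrays, lines join the lowest and highest). Choroid plexus genes are high on replicates 1 and 3, Npas4 (-2.72), Fos and Arc are lowest on replicate 1, the genes chosen for replicate 3 are high there except Chat, and 6 of the 8 chaperones are high on replicate 4.

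Fibroblast markers were low on replicate 2. All 15 genes of the meningeal and perivascular fibroblast list were above background and all 15 had replicate 2 lowest, against 25% of all genes. The list means were 0.18, -0.37, 0.06 and 0.13, a list range of 0.552, and without replicate 2 it was 0.123. Dcn, a proteoglycan of connective tissue that is also a CA1 marker, had 3.80, 2.90, 3.92 and 4.03. Ptgds, which makes prostaglandin D2, had 6.42, 5.77, 6.08 and 6.58. Dio3, which inactivates thyroid hormone, had 1.25, -0.90, 0.99 and 1.67, and Vgll3, a transcriptional cofactor, -1.59, -4.07, -2.03 and -1.62. Dio3os, the antisense neighbour of Dio3, had a range of 0.76.

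Myelin genes were lowest on replicate 4. All 15 found had replicate 4 lowest, against 26.7% of all genes, with a list mean of -0.21 there and a list range of 0.33. Mbp, the myelin basic protein, had 6.28, 6.30, 6.29 and 6.12. Opalin, a marker of mature oligodendrocytes, had -0.57, -0.32, -0.33 and -0.93. The shift was shared by the list while none of its genes reached a range of 1. Of 12 immature neuron and progenitor markers 7 had replicate 4 lowest and 4 had it highest, with a list mean of -0.18 there. Without replicate 4 the list range was 0.0959 for myelin genes and 0.231 for the immature neuron and progenitor markers, against 0.37 on all arrays for the latter, which was 0.21 without replicate 3.

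Blood cell genes were mostly highest on replicate 1. Of 15 blood cell genes found 8 were above background throughout, 6 of these had replicate 1 highest, against 20.8% of all genes, and the list range was 0.611. It was 0.268 without replicate 1 and 0.381 without replicate 2. Hbb-bt, a beta globin, had 6.37, 5.95, 5.69 and 5.88, and Hba-a1, an alpha globin, 5.71, 5.32, 5.02 and 5.24. The probes cannot separate near-identical globin copies. Alas2, the enzyme of red cell haem synthesis, had 0.52, -0.10, -0.47 and -0.19. Microglia and astrocyte lists did not share the order. Replicate 1 was also highest for 9 of 17 interferon-stimulated genes and 7 of 16 endothelial and pericyte markers. Their list means there were 0.13 and 0.09.

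Genes induced by corticosteroids moved in no common direction. Of 23 found 22 were above background throughout and Lcn2 on none. The list range was 0.136, and 2 genes had a range of at least 1. Fkbp5, a co-chaperone of the receptors, had -1.18, -1.58, -2.10 and -0.88, and another of its probes -2.40, -2.94, -3.58 and -2.37. Its other remaining probe read -1.82, -1.64, -2.07 and -2.23, in another order. Sgk1, a kinase, had 3.98, 3.88, 4.10 and 3.31, lowest where Fkbp5 was highest, and Angptl4, which inhibits lipoprotein lipase, 0.54, 0.75, 1.14 and 0.11. Mt2, a metallothionein, was the brightest of the list at 6.22, 6.49, 6.38 and 6.16. None of the 18 clock genes had a range of 1. Per2 was the widest of them, at -0.85, -1.01, -0.95 and -0.33.

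The most variable genes by SD were often single genes or dim ones. Ccl21a, a chemokine of lymphoid tissue, had the largest SD of all, at -5.95, 0.43, 0.02 and 1.45 (SD 3.35), with replicate 1 far below. Gm3893, its neighbour on chromosome 4, had -1.51, 0.26, 0.07 and 0.90, in the same order. Ccl19, which lies between them, had -0.68, -0.56, -0.72 and -0.55 and varied little. Copies of Ccl21 are near-identical, so the gene behind these probes is uncertain. Pisd-ps3, a pseudogene, had 1.94, 4.47, 4.07 and 3.81, but its other probe 2.92, 3.38, 3.27 and 3.20. Wdfy1, an endosomal protein, had 2.08, 1.32, -0.08 and -0.16, its second probe 0.60, 0.09, -1.54 and -1.68, and a dim last probe -5.13, -4.88, -4.22 and -4.30 in the opposite order. Gabra2, a GABA-A subunit, had 0.70, 1.72, 1.60 and 1.50, lowest on replicate 1.

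Of the 30 genes with the largest SD 25 had a mean under -2. In 9 of the 30 a single array stood high by Dixon's ratio, the gap to the nearest array over the whole range, against 5.63% of all genes for an array apart on either side. Stoml3 had -2.29 on replicate 1 and -5.30, -5.44 and -5.75 on the others, and its second probe read -4.997, -5.16, -4.99 and -5.03. The high reading on replicate 1 was absent from that second probe. Among genes with a range of at least 1 that had another probe above background, 36 of 87 other probes (41.4%) also had a range of at least 1, against 1.75% of those of genes with a smaller range. Of 644 such genes, 144 had a mean level above -2. Among the 30 most variable of these with a symbol 18 had replicates 1 and 3 high, and 11 of the 30 were choroid plexus markers.

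Some genes were seen on only some arrays. Slc6a18, a neutral amino acid transporter of kidney, was above background only on replicate 3, at -2.10, and Odf1, a sperm tail protein, only on replicate 2, at -2.44. Il3, a cytokine, was above background only on replicate 1, at -2.78. The other arrays have only a bound for these genes.

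A minority of neighbouring genes with a wide range had the same arrays high. Among 455 genes with a symbol, a mapped place and a range of at least 1 there were 25 pairs with no other gene above background on all 4 arrays between them, and 8 of these pairs had the same arrays high. They were Krt8 and Krt18, Hspa1b and Hspa1a, Kcnh8 and Efhb, Steap2 and Steap1, Crhr2 and Inmt, Folr2 and Folr1, Defb9 and Defb11, and Zic1 and Zic4. Most of them had replicates 1 and 3 high, Zic1 and Zic4 replicate 3, and the Hsp70 pair replicate 4. Of all 456 genes with a symbol and such a range, 155 had replicates 1 and 3 high, so genes far apart can match too. How often they would was not tested. Some pairs are related copies whose probes can share sequence.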

How the data were processed

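Each array was read from the scanner file the authors deposited. Per the file headers, the processed signal is an intensity in arbitrary units, already corrected for background, and other columns hold flags. The submitters' processing notes name Agilent Feature Extraction 12.0. The value table the authors deposited held the same intensity at 45018 of 45018 spots of each dflox array.

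The deposited intensities were log2-transformed, and the 75th percentile of each array over its 43379 spots that are not controls was subtracted. Outlier spots (304 over 4 arrays) were left out and spots of a probe averaged, which gave 41174 probes. Through RefSeq accessions of GRCm38.p6, 28223 had 1 symbol, 0 several and 12951 none. Each gene was read by its probe of highest mean. The array was designed on build mm9, so no probe position is given. A range of 1 log2 unit was the threshold, and Dixon's ratio above 0.829 for 4 arrays marked an array that stands apart. No spike-in signal was used. Calculations used Python 3.11.15, R 4.3.3 and limma 3.58.1 (normexp with offset 50, on median signals because the files hold no mean signals). The steps were tested on simulated data.

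Genes were named from the 30 brightest and the 10 steadiest of the 1000 brightest. Others came from the 30 of largest SD above background on all 4 arrays and the 10 of largest SD seen on some arrays. Not every member of these sets is named. From each list or family, genes were taken from the widest, the brightest and those not seen. Some further genes, such as Folr1, Ace, Prlr, Krt18, Egr3, Homer1, Bdnf, Btg2, Dusp1, Manf, Creld2, Pdia6, Calr, Hsp90b1, Hyou1, Slc5a7, Chat and Gabra2, were chosen after their values were seen. Members and lists were chosen with earlier results of these data known.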

Additional observations from a re-analysis of the deposited data

Results flagged for a closer look

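In 7 of the 120 genes named, 1 array stood apart from the other 3 by Dixon's ratio, which chance alone gives in about 1 of 20 groups. These were Gria1 on replicate 3 (5.86, below the others), Mbp on replicate 4 (6.12, below), Hspa1b on replicate 4 (1.17, above), Gnrh1 on replicate 3 (-2.93, above), Stoml3 on replicate 1 (-2.29, above), Slc6a18 on replicate 3 (-2.10, above) and Il3 on replicate 1 (-2.78, above). Slc6a18 and Il3 were above background on that array only. The genes named were picked partly for their values, so their count of 7 cannot be set against chance.

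Of the 30 lists 4 had an array mean apart from the rest. On replicate 4 the heat shock and chaperone list stood at 0.35 and its cytosolic heat shock genes at 0.33. On replicate 3 the striatum list stood at 0.36 and the septal and cholinergic list at 0.998. The cytosolic heat shock and the septal and cholinergic lists were chosen after the values were seen. Over all 20085 genes 1130 (5.63%) had an array apart by the same ratio.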

How the results depend on the processing

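The count of genes with a range of at least 1 log2 unit depended most on dim genes. It was 644 as reported, 192 after normexp background correction, whose offset compresses dim signals, 4776 with no filter on detection, and 144 among genes with a mean level above -2, an alternative chosen after seeing the data. The remaining alternatives (quantile normalization, median scaling, mean of all probes, outlier spots kept, at least 3 arrays above background) kept it between 564 and 830. Leaving out each array in turn gave 406 to 532, lowest without replicate 3, and 20113 to 20441 genes above background. The activity-regulated list range was 0.206 to 0.594 with an array left out, lowest without replicate 1. The choroid plexus range was 1.27 to 1.48 and the corticosteroid-induced range 0.0935 to 0.136, and both kept within 1 SD under every alternative run. The striatum list range was 0.187 when members with a mean level under -2 were dropped. Of the 60 named genes with a range of at least 1, 57 kept their highest and lowest array under quantile normalization and 53 under normexp correction. No paired analysis was possible because the arrays form 1 group and the results come from no test. Signal near background limits what can be read from genes with a level under -4.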

Other observations

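Some genes not described above also differed. Etnppl, a phospholyase of astrocytes, had 0.65, -0.42, -0.12 and 0.66 on replicates 1 to 4, while the astrocyte list as a whole had a range of 0.0813. Syt10, a synaptotagmin, had 2.47, 1.30, 2.13 and 0.47, and its second, dim probe had -4.29, -4.43, -4.43 and -4.26. Xlr4b, of a repeated X-linked family, had -0.20, -0.23, -1.39 and -1.25, and Xlr3c -1.47, -1.61, -2.61 and -2.54, so both were high on replicates 1 and 2. Their probes can share sequence with other copies. Baiap3 and Magel2, both known from hypothalamus and both members of the septal and cholinergic list, had ranges of 1.8 and 1.81, with replicate 3 highest. These genes were chosen after their values were seen.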
